A study of Homo sapiens with 6 samples.

Results

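The carbonic anhydrase genes described here are CA1, CA2, CA3, CA5B, CA8 and CA13, 6 of the 62754 gene rows in each deposited table, chosen by gene name. They were measured in HUDEP-2, an immortalised human erythroid progenitor line derived from umbilical cord blood that makes mainly adult hemoglobin and carries a doxycycline-driven viral oncogene cassette. Per the labels, the culture medium of both groups held erythropoietin (3 units per ml), stem cell factor (50 ng per ml), dexamethasone (1e-06 M) and doxycycline (1 µg per ml). The cells received a lentiviral shRNA against MEN1, which encodes menin, a subunit of the MLL1 histone methyltransferase complex (3 libraries, called the knockdown here), or a non-targeting control shRNA (3 libraries, the control). Puromycin at 2 µg per ml was present from 24 h for 48 h, and RNA was taken 72 h after transduction. The titles call the replicates biological and name 1 MEN1 hairpin, in 1 cell line, so lower MEN1 and any other action of that hairpin cannot be told apart.

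Carbonic anhydrases are zinc enzymes that interconvert carbon dioxide and bicarbonate. In red cells they work beside band 3, the chloride and bicarbonate exchanger, so that carbon dioxide from tissues travels in plasma as bicarbonate and is released again in the lung. CA1 and CA2 are the main isozymes of the erythrocyte, CA2 being the faster enzyme and CA1 the more abundant protein, and CA1 is known as a late, adult-stage erythroid gene. CA3 is the muscle isozyme, CA13 a further cytosolic isozyme, CA5B a mitochondrial isozyme, and CA8 a related protein without catalytic activity that binds the IP3 receptor ITPR1.

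The genes differed in position as well as in level. On hg38, CA13 (ENSG00000185015, chromosome 8, 85220587 to 85284073, plus strand), CA1 (ENSG00000133742, 85327608 to 85379014, minus strand), CA3 (ENSG00000164879, 85373436 to 85449040, plus strand) and CA2 (ENSG00000104267, 85463968 to 85481493, plus strand) lie in 1 cluster of 261 kb. CA8 (ENSG00000178538, chromosome 8, 60185412 to 60281400, minus strand) is elsewhere on the same chromosome, and CA5B (ENSG00000169239, chromosome X, 15688830 to 15788411, plus strand) is on X. The CA1 and CA3 rows share 5579 bases on opposite strands. The CA5B row overlaps both rows of its transcribed pseudogene CA5BP1 on the same strand, one of them by 14895 bases.

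MEN1, examined first as a check of the labels, had a TPM (transcripts scaled for length and to a fixed total of 1000000 per library) of 6.29, 6.44 and 6.88 in the knockdown and 41.2, 39.6 and 37.1 with the control (log2 fold change -2.42, adjusted p 8.54e-06 in limma). Depth inferred from the tables was 18400000 to 35800000 read pairs per library. All 10 erythroid markers were detected, including HBB and GATA1, with a summed level of 77200 to 85200 TPM in the knockdown and 46000 to 50100 TPM in the control. Of these markers 7 rose (adjusted p under 0.05 in limma), against 22.1% of all tested genes, and KLF1, GATA1 and EPOR did not pass. Of 6 megakaryocyte markers 5 stayed below 1 TPM, PF4 and PPBP were listed at 0 in all 6 libraries, and their sum, mostly ITGA2B, was 17.0 to 21.6 TPM in the knockdown and 31.9 to 36.7 TPM in the control. Of 9 myeloid and lymphoid markers LYZ alone passed the filter on low values, at 1.48 ± 0.198 TPM in the control and 0.198 ± 0.0619 TPM in the knockdown. The mast cell tryptase genes TPSAB1 and TPSB2 were expressed, while CPA3 and HDC stayed below 1 TPM. The 6 mast cell and basophil markers summed to 848 to 1000 TPM in the knockdown and to 1310 to 1590 TPM in the control. That sum includes KIT, at 122 ± 3.47 TPM in the knockdown and 271 ± 18.6 TPM in the control. Of the 4 tested markers of this list 3 fell, against 31.5% of all tested genes. The part of these markers in the results below was not tested.

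CA1 and CA2 rose, CA3 and CA5B fell, CA8 did not pass the test, and CA13 was too low to be tested. The test was limma on log2(TPM + 1) over genes that reached 1 TPM in 3 libraries or more, a filter that 5 of the 6 carbonic anhydrase genes met. Among them 2 passed an adjusted p of 0.05 upward, against 22.1% of the 14294 genes tested, and 2 passed downward, against 31.5%. In either direction 53.6% of all tested genes passed, so a passing carbonic anhydrase gene is not by itself unusual in this comparison. The balance of directions moved with the scaling, from 3158 higher and 4499 lower here to 3758 and 3838 with median-of-ratios scaling and 3731 and 3863 with quantile normalization. The groups did not overlap in 4 of the 5 tested members, against 61.8% of all tested genes, with 2 higher (25.8% of all tested genes) and 2 lower (35.9%) in the knockdown. CA5B, counted as lower in both tallies, met the filter through the control, where it is high. A fall was thus favoured by its entry into the test.

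**Figure D1:**
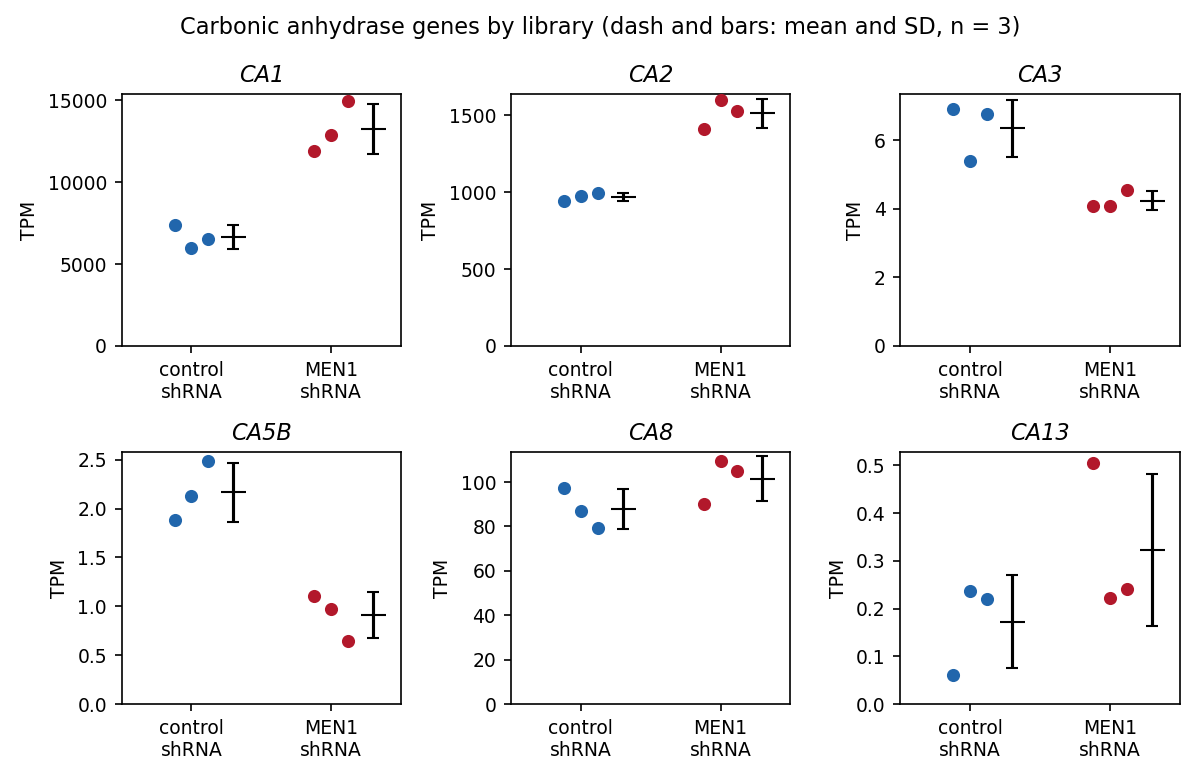
TPM of each carbonic anhydrase gene (vertical axes, linear, each starting at 0) in the 3 control shRNA and 3 knockdown libraries; points are libraries, and the dash and bars are the mean and SD. The groups are separate for CA1, CA2, CA3 and CA5B and overlap for CA8 and CA13.

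CA1 was the most abundant member on the TPM scale. Its level was 11903, 12906 and 14936 TPM in the knockdown libraries (replicates 1, 2 and 3, the order used throughout) and 7411, 5981 and 6527 TPM in the control libraries. The groups were far apart, with control replicate 1 the nearest to the knockdown. The means were 13249 ± 1545 and 6640 ± 722 TPM (SD, n = 3 each), a ratio of 2.00, and the log2 fold change was 1.00 (95% interval 0.73 to 1.26, SE 0.112, adjusted p 0.000268 in limma). CA1 ranked 6 among all gene rows in each knockdown library and 7, 9 and 8 in the control libraries, and it held 1.19% to 1.49% of TPM in the knockdown against 0.598% to 0.741% in the control.

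CA2, the fast isozyme, was at 1414, 1598 and 1525 TPM in the knockdown and at 941, 973 and 993 TPM in the control. The control libraries were close together and all lay below the knockdown libraries. The means were 1512 ± 92.8 and 969 ± 25.9 TPM, a ratio of 1.56, with a log2 fold change of 0.64 (95% interval 0.49 to 0.79, SE 0.0623, adjusted p 0.00014 in limma). CA2 ranked 72 to 86 in the knockdown and 124 to 131 in the control.

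**Figure D2:**
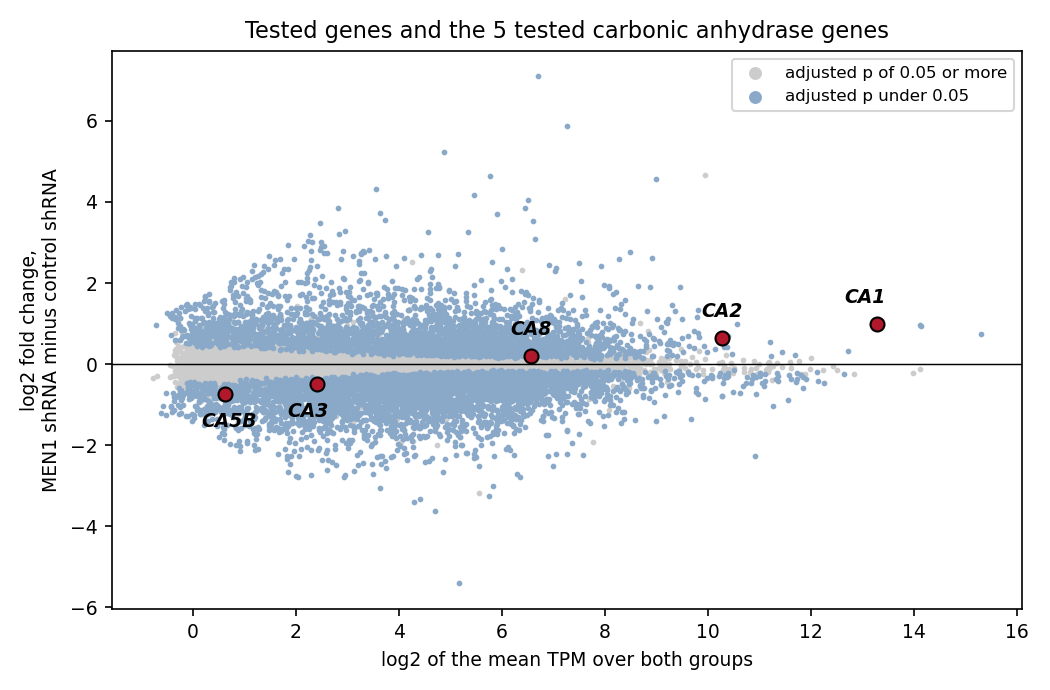
Log2 fold change (MEN1 shRNA minus control shRNA) of every tested gene against the log2 of its mean TPM over both groups; blue points passed an adjusted p of 0.05, grey points did not, and red points are the 5 tested carbonic anhydrase genes. CA1, at a log2 fold change of 1.00, sits near the right edge among the most abundant transcripts, and CA5B and CA3 lie below 0 at low levels.

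The CA1 estimate was larger than that of CA2, and the ratio of both genes within each library was compared directly. The CA1 TPM was 8.42, 8.08 and 9.79 times the CA2 TPM in the knockdown libraries and 7.87, 6.15 and 6.57 times in the control libraries. The ranges did not overlap, although knockdown replicate 2 and control replicate 1 were close. The log2 ratio was 3.13 ± 0.146 and 2.77 ± 0.184 (n = 3 each), a difference of 0.355, and an exact permutation test (2-sided) gave p = 0.1, the minimum possible with 3 libraries a group. Under quantile normalization, which matches the libraries by rank, this difference turned to -0.11. Median-of-ratios scaling, which divides each library by 1 factor, cannot move a ratio within a library and left it at 0.36. A larger rise of CA1 than of CA2 was thus not seen under quantile normalization. That setting gives each rank the same value in every library, and CA1 ranked 6 in the knockdown and 7 to 9 in the control. Its change under that setting is limited to the steps between those ranks.

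How far CA1 exceeded CA2 depended on the deposited quantity. GENCODE 29 lists 25 transcripts for CA1, with a union of 4068 exonic bases, and 5 for CA2, with a union of 2123. The deposited FPKM of CA1, which fixes its TPM, was 9.22 to 10.3 times the value its mean coverage over the gene would give, whereas for CA2 this factor was 1.29 to 1.30. Mean coverage per exonic base was also scaled to 1000000000 aligned bases per library. This scaled coverage was 538, 597 and 709 for CA1 in the knockdown and 373, 277 and 309 in the control. For CA2 it was 509, 577 and 545 in the knockdown and 337, 338 and 347 in the control. On this coverage scale the CA1 to CA2 ratio was 1.06, 1.03 and 1.30 in the knockdown and 1.11, 0.819 and 0.890 in the control, so the ranges overlapped between groups, and neither gene was above the other in every library. The rise itself was seen on both scales, as the coverage of CA1 was 1.92 times and that of CA2 1.60 times the control level. What produced the difference in CA1 level between the scales was not tested.

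**Figure D3:**
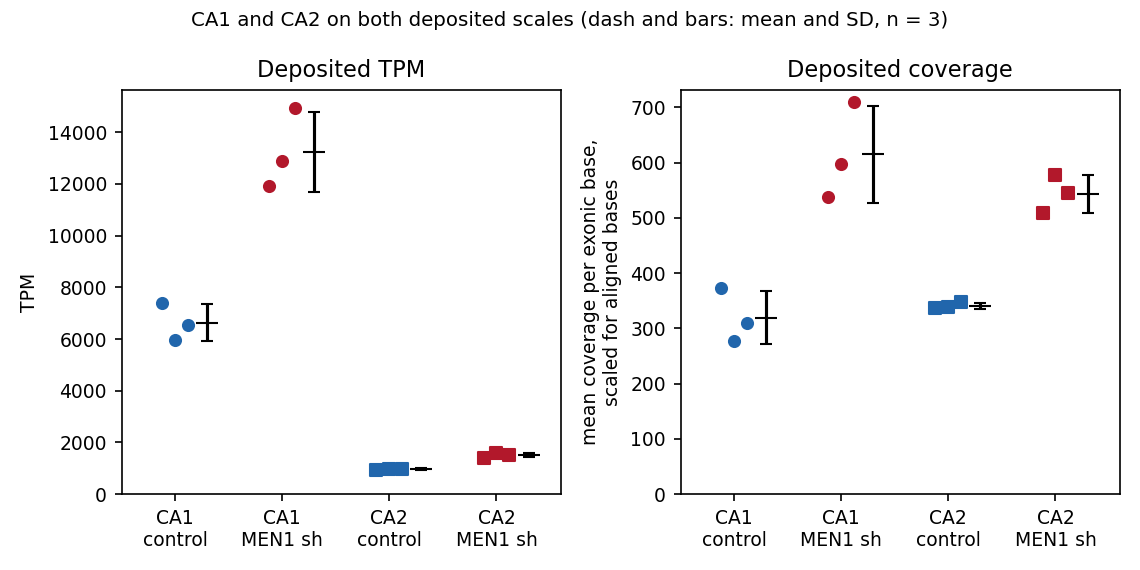
CA1 (circles) and CA2 (squares) in each control (blue) and MEN1 shRNA (red) library, as deposited TPM (left) and as deposited mean coverage per exonic base scaled for the aligned bases of the library (right); dash and bars are the mean and SD, and both axes start at 0. CA1 is above CA2 in every library in TPM, at 6.15 to 9.79 times its level, while by coverage the same ratio is 0.819 to 1.30.

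Summed over the 6 genes, carbonic anhydrase TPM was 13412, 14619 and 16572 in the knockdown and 8459, 7048 and 7609 in the control. CA1 made up 88.3% to 90.1% of that sum in the knockdown and 84.9% to 87.6% in the control, and CA2 made up 9.20% to 10.9% and 11.1% to 13.8%. The other 4 genes together held under 1.35% of the sum in every library (0.666% to 1.34%). The sum is therefore a statement about CA1 on the TPM scale.

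CA3, the muscle isozyme, was lower in the knockdown, unlike CA1 and CA2 on either side of it. It was at 4.08, 4.09 and 4.55 TPM in the knockdown and at 6.90, 5.39 and 6.76 TPM in the control. The groups were separate, with control replicate 2 the nearest to the knockdown libraries. The log2 fold change was -0.48 (95% interval -0.77 to -0.19, SE 0.124, adjusted p 0.0127 in limma), and leaving out 1 library at a time gave adjusted p-values of 0.00952 to 0.0484. The value rests on about 47 to 60 read pairs in the knockdown and 90 to 110 in the control, estimated from coverage and the GENCODE 29 exon length. The antisense gene CA3-AS1, which overlaps CA3 and the start of CA2, was at 2.91 ± 0.369 and 2.80 ± 0.243 TPM (log2 fold change 0.04, adjusted p 0.833). Whether the quantification used strand is not given in the sources used here, and the part of reads from the overlapping, far more abundant CA1 in the CA3 value was not tested. When all rows overlapping CA3 were added to it, CA1 dominated the sum, and its log2 fold change was 0.99.

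CA5B, the mitochondrial isozyme, had the largest fall among the tested members, at the lowest level. It was at 1.11, 0.974 and 0.647 TPM in the knockdown and at 1.88, 2.13 and 2.48 TPM in the control, so that the groups did not overlap. The means were 0.910 ± 0.238 and 2.17 ± 0.301 TPM, a ratio of 0.420, and the log2 fold change on the log2(TPM + 1) scale, which understates changes at such levels, was -0.73 (95% interval -1.12 to -0.35, SE 0.165, adjusted p 0.00704 in limma). CA5B met the filter through the control, where it is high, since 1 knockdown library reached 1 TPM, so a fall was favoured by its entry into the test, and without the filter the adjusted p was 0.0411 in limma. The values rest on about 9.2 to 12 read pairs in the knockdown and 39 to 49 in the control. The scaled coverage was 0.0559 ± 0.00323 and 0.177 ± 0.0213, a ratio of 0.316. The deposited FPKM of CA5B was 5.13 to 9.14 times the value its mean coverage would give, a factor that varied between libraries. The source of that variation was not tested.

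CA5B was a small part of the sum of the gene and its pseudogene, so that sum could show little of its fall either way. The longer CA5BP1 row (ENSG00000290746, chromosome X, 15674932 to 15703724) was at 16.5, 20.1 and 15.4 TPM in the knockdown and at 15.9, 19.1 and 16.2 TPM in the control (log2 fold change 0.02, adjusted p 0.909). CA5B held 3.99% to 6.20% of the TPM of CA5B and CA5BP1 together in the knockdown and 9.91% to 12.9% in the control. When the overlapping rows of the same strand were added to CA5B, the log2 fold change was -0.08 (adjusted p 0.601 in limma; 0.000549 to 0.601 over all alternatives). How reads were divided between gene and pseudogene was not tested.

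The deposited CA5B row starts inside both CA5BP1 rows, whereas the start of CA5B in RefSeq is set apart from them. The RefSeq start (GRCh38.p14) is at chromosome X, 15738270, which lies 49440 bases inside the deposited CA5B row, downstream of the end of both CA5BP1 rows. Where the measured CA5B RNA starts was not tested. The 250 bases before that start (chrX:15738020-15738269, plus strand) are shown because CA5B is the member that fell most and the 1 member matched in the promoter table used here. Capitals mark each copy of GGGCGTG.

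CA5B upstream region: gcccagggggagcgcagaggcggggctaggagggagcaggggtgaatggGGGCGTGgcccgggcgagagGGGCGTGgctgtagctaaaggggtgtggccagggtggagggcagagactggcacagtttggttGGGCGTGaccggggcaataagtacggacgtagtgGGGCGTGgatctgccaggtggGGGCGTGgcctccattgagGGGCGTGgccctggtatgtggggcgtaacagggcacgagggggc

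The repeated letters are plain to see. GGGCGTG occurred 6 times on the strand shown and its reverse complement CACGCCC 0 times, and 5 of the copies belong to the longer GGGGCGTGG. Of 35116 windows of the same length in that table, 7.98% held GGGCGTG on either strand, and 9 windows (0.0256%) held 6 or more copies. The motif was picked after the sequence was read, so these shares are a description. The window had a GC content of 69.2%, against a median of 58.0% over all windows, and 15 CpG dinucleotides, against a median of 11. No AGATAA, the core of a GATA site, TATAAA or CCAAT was found on either strand, letters that 9.17%, 10.7% and 32% of all windows held. CACCC, the core of the box that KLF1 binds, occurred 0 times on the strand shown and 3 times on the other, and 8.56% of all windows held 3 or more copies on both strands together. These counts cover the exact letters only, so they do not give the number of sites a factor could bind.

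CA8, the acatalytic relative, was the third most abundant member by TPM. It was at 90.1, 110 and 105 TPM in the knockdown and at 97.2, 86.9 and 79.2 TPM in the control. The groups overlapped, since knockdown replicate 1 lay below control replicate 1. The log2 fold change of 0.21 (95% interval -0.03 to 0.44, adjusted p 0.12 in limma) did not pass the threshold, an interval that leaves room for a rise of up to 0.44 on the log2 scale. The scaled coverage of CA8 was 21.0 ± 1.21 in the knockdown and 16.3 ± 0.882 in the control (log2 fold change 0.31, adjusted p 0.00639 in limma), a setting chosen after the data were seen. Without knockdown replicate 1 the TPM estimate was 0.29 (adjusted p 0.037). Its adjusted p ran from 0.00639 to 0.32 across the settings tried, and the call also changed with scaling and library weights.

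CA13 was barely detected. It was at 0.505, 0.223 and 0.240 TPM in the knockdown and at 0.0616, 0.237 and 0.220 TPM in the control, on about 1.4 to 9.6 read pairs per library. The groups overlapped, with knockdown replicate 1 high and control replicate 1 low. The scaled coverage was 0.0704, 0.0205 and 0.0414 in the knockdown and 0.0106, 0.0160 and 0.0112 in the control, and on that scale the groups did not overlap. CA13 did not meet the filter, and without the filter its adjusted p on the TPM scale was 0.408 in limma.

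In order of mean TPM the members ran CA1, CA2, CA8, CA3, CA5B and CA13 in both groups. Their ranges did not overlap between neighbours in that order within either group. By coverage the order of CA1 and CA2 was not resolved, as given above.

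Neighbouring genes of the cluster did not share the rise of CA1 and CA2. Of 20 named rows that are not carbonic anhydrase genes within 500 kb of the cluster, 4 were tested, 3 fell and 0 rose, against 31.5% and 22.1% of all tested genes, and 4 genes are too few to set these surroundings apart. LRRCC1, a centrosomal gene, was at 17.8, 13.2 and 15.0 TPM in the knockdown and at 40.4, 41.1 and 41.5 TPM in the control (log2 fold change -1.37, adjusted p 6.28e-05). E2F5, a repressor-type E2F cell-cycle factor, fell from a control mean of 8.95 ± 0.703 to a knockdown mean of 2.198 ± 1.07 TPM, a log2 fold change of -1.68 (adjusted p 0.000506), and RBIS, a ribosome biogenesis factor whose row ends just before that of CA13, fell from a control mean of 184 ± 12.7 to 137 ± 3.83 TPM, a log2 fold change of -0.42 (adjusted p 0.00112). The rise was thus found at CA1 and CA2 among the tested genes there, and CA3, whose row starts within 6 kb of that of CA1 by these coordinates (a start-site distance of -90.5 kb from CA2 against -85.0 kb for CA1), was lower.

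**Figure D4:**
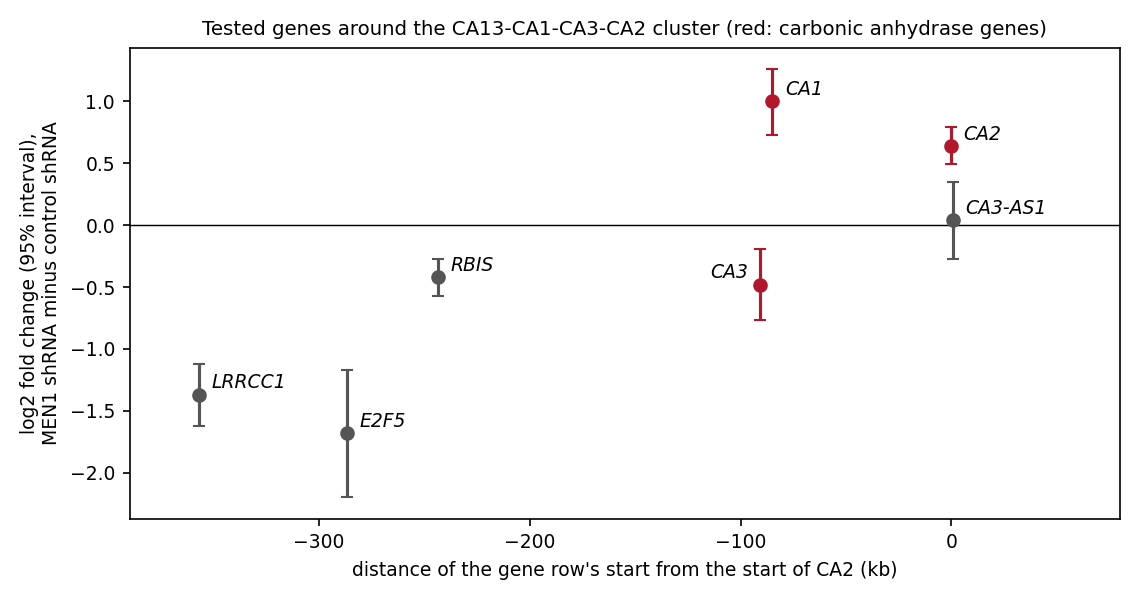
Log2 fold change (MEN1 shRNA minus control shRNA, bars are 95% intervals) of each tested gene around the cluster against the distance of its row's start from that of CA2, in kb; red marks carbonic anhydrase genes. CA1 at 1.00 and CA2 at 0.64 stand above 0, CA3-AS1 at 0.04 spans it, and CA3, RBIS, LRRCC1 and E2F5 are below it.

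Around CA8, RAB2A, a small GTPase of the early secretory pathway, rose from a control mean of 43.7 ± 2.51 to 54.3 ± 3.36 TPM, a log2 fold change of 0.31 (adjusted p 0.0094), while the chromatin remodeler CHD7 did not pass (-0.08, adjusted p 0.318). Around CA5B, 2 of 6 tested named rows fell, a share close to the 31.5% of all tested genes. PIR, which encodes the iron-binding nuclear protein pirin, had a log2 fold change of -0.50 (adjusted p 0.0277), although its groups overlapped. ASB9, which encodes an adaptor of a ubiquitin ligase, was listed at 0 in the 3 knockdown libraries and was at 1.40, 1.19 and 1.35 TPM in the control, the group through which it met the filter. The splicing factor gene ZRSR2, next to CA5B, did not pass (-0.10, adjusted p 0.599).

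The rest of the family was mostly silent. Of the 9 other carbonic anhydrase genes, 8 stayed below 1 TPM in all 6 libraries, among them CA9 and CA12, the membrane isozymes of hypoxic and epithelial cells. CA12 was at 0.210, 0.194 and 0.249 TPM in the knockdown, at 0.0183 TPM in control replicate 2 and listed at 0 in control replicates 1 and 3. CA11, a secreted relative without catalytic activity, was the 1 other gene tested, at 19.9, 21.9 and 21.0 TPM in the knockdown and at 8.81, 7.55 and 8.00 TPM in the control. Its groups were far apart, and its log2 fold change of 1.27 (SE 0.09, adjusted p 4.57e-05 in limma) was above that of CA1.

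The genes that carbonic anhydrases work with were compared by lists chosen with earlier results of these data known, each read against the 22.1% and 31.5% of all tested genes that passed upward and downward and against the median log2 fold change of -0.07 over all tested genes. Among bicarbonate transporters, 4 of 15 were tested, 2 rose and 2 fell (median 0.01). SLC4A1, band 3 of the red cell membrane, was at 402, 441 and 444 TPM in the knockdown and at 117, 110 and 109 TPM in the control (log2 fold change 1.93, adjusted p 8.37e-06). SLC4A2, the broadly expressed anion exchanger, rose by 0.54 on the log2 scale, and the sodium-coupled SLC4A7 (-0.58) and the exchanger SLC26A6 (-0.52) fell.

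All 6 tested water and gas channel genes of 12 rose (median 1.60). One of them, AQP11, met the filter through the knockdown, where it is high, so a rise was favoured by its entry into the test. AQP11 was at 1.71, 2.65 and 4.16 TPM in the knockdown and at 0.368, 0.908 and 1.25 TPM in the control. AQP1, the red cell water channel, was at 111, 72.3 and 165 TPM in the knockdown and at 24.4, 16.4 and 22.9 TPM in the control (log2 fold change 2.34, adjusted p 0.000364), with a wide spread among the knockdown libraries. RHAG, the Rh-associated glycoprotein of the red cell membrane, was at 794, 1110 and 1017 TPM in the knockdown and at 573, 606 and 602 TPM in the control (log2 fold change 0.70, adjusted p 0.00168). RHCE (log2 fold change 2.71) and RHD (2.16) are near-identical paralogs, so the division of reads between them is uncertain.

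Of 12 proton and lactate transporter genes 10 were tested, 1 rose and 3 fell (median -0.11). SLC16A1, the lactate and proton carrier MCT1, was at 40.8, 12.9 and 13.7 TPM in the knockdown and at 134, 145 and 142 TPM in the control (log2 fold change -2.79, adjusted p 0.000644). Its chaperone BSG rose by 0.42 on the log2 scale (adjusted p 0.00031), and the scaffold NHERF1 (-1.17) fell.

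Bicarbonate-using carboxylases and their partner genes, the enzymes a mitochondrial carbonic anhydrase can supply among them, fell in 8 of 10 tested members, 0 rose, and the median was -0.78. PC, pyruvate carboxylase, was at 13.6, 12.6 and 12.2 TPM in the knockdown and at 22.6, 23.3 and 21.9 TPM in the control (log2 fold change -0.78, adjusted p 0.000153). MCCC2 of leucine breakdown (-1.06), CAD, which starts pyrimidine synthesis (-1.12), and PCCA of propionate breakdown (-0.92) fell as well, and ACACA (-0.11, adjusted p 0.463) and CPS1 (-0.20, adjusted p 0.415) did not pass.

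Of the IP3 receptors, calcium channels of the endoplasmic reticulum, ITPR1, the partner of CA8, was at 9.52 ± 0.576 and 8.19 ± 1.43 TPM and did not pass (log2 fold change 0.20, adjusted p 0.221). ITPR2 fell from a control mean of 15.3 ± 2.57 to 5.31 ± 1.33 TPM (-1.38, adjusted p 0.000485) and ITPR3 rose from 2.16 ± 0.212 to 5.25 ± 1.33 TPM (0.96, adjusted p 0.00303).

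Regulators known from erythroid cells showed 1 rise and 6 falls among 11 tested genes (median -0.31), against 22.1% and 31.5% of all tested genes. KLF1, the erythroid activator that binds CACCC boxes, did not pass (-0.05, adjusted p 0.508), and neither did GATA1 (0.06, adjusted p 0.327). THRA, the thyroid hormone receptor whose viral relative represses CA2 in avian erythroid cells, was at 13.2, 9.02 and 14.5 TPM in the knockdown and at 20.7, 25.8 and 24.4 TPM in the control (log2 fold change -0.92, adjusted p 0.00278). TAL1 rose by 0.74, and MYB (-1.23), LDB1 (-0.84) and BCL11A (-2.45) fell.

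Of 20 late erythroid genes 18 rose, against 22.1% of all tested genes, and 1, TRIM58, fell, against 31.5%. Their median was 0.97, with a range from -0.99 (TRIM58) to 1.95 (GYPB). The log2 fold change of CA1 (1.00) stood close to that median and to the values of ALAS2 (1.03), HBA1 (0.95) and AHSP (0.98), while CA2 (0.64) was nearer to HBB (0.73) and EPB42 (0.74). The genes set beside CA1 and CA2 were picked for near values after these were seen, so their closeness is not a finding. The tests of these genes share the same 6 libraries, so their values are set side by side as a description. In bulk RNA, more cells at a late stage and more RNA per cell cannot be told apart.

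**Figure D5:**
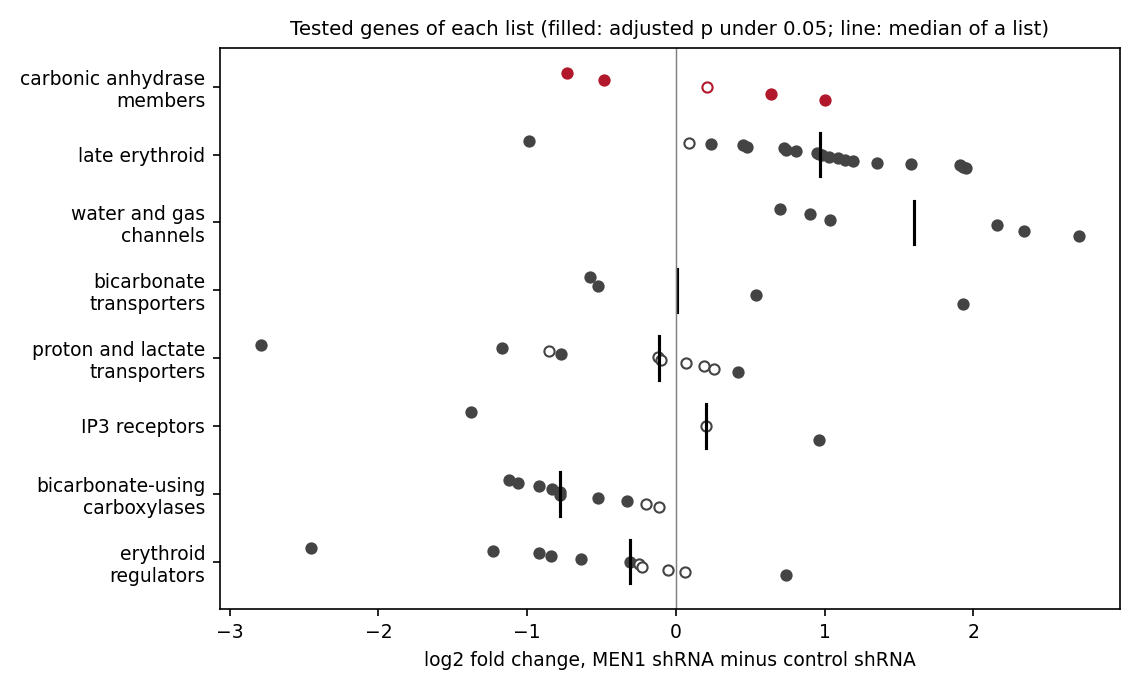
Log2 fold change (MEN1 shRNA minus control shRNA) of the 5 tested carbonic anhydrase members (red) and of each tested gene in 7 lists (grey); filled points passed an adjusted p of 0.05 in limma and the line is a list's median. Late erythroid genes (median 0.97) and water and gas channels (1.60) lie mostly above 0, and carboxylases (-0.78) lie below it.

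Genes with profiles most like each member were found by the Euclidean distance between log2(TPM + 1) profiles over the 6 libraries, each centred on its mean. Nearest to CA1 were MARCHF3, CDH6 and NDRG1 (distances 0.0771, 0.0927 and 0.155). CDH6, a cadherin, was at 111, 119 and 148 TPM in the knockdown and at 68.8, 58.4 and 62.3 TPM in the control, which repeats the high knockdown replicate 3 and high control replicate 1 of CA1. As these genes were selected for closeness over the same libraries, a shared pattern follows from the selection and is not a finding. Nearest to CA2 were PPP2CB, RDH11 and ERAP1 (0.0378, 0.0580 and 0.0634), to CA3 ZNF263, SNHG10 and FAM104B (0.0716, 0.107 and 0.113), to CA5B ITPA, GTF2H2B and NAT9 (0.0707, 0.102 and 0.107), and to CA8 CCT6P3 and SLC16A3 (0.110 and 0.111). No member was among the 3 nearest genes of another.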

How the data were processed

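Poly(A) RNA of 6 HUDEP-2 libraries was sequenced from strand-specific libraries, per the labels' protocols. The submitters' processing notes name FastQC, Trimmomatic, STAR 2.7.1a, Picard 2.20.4, StringTie 2.0.4 and hg38; the annotation is not given in the sources used here. Each deposited table holds coverage (a signal, the mean per exonic base), FPKM and TPM, per the file headers. TPM as deposited adds up to 1000000 in each library. Negative residues in 2 rows of control replicate 2 were set to 0. No counts were given, so no count model was fitted.

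Aligned bases per library came from the coverage to FPKM ratio of single-transcript genes, equal within 0.1% in 94.93% to 95.39% of them, and read pairs from the most frequent product of coverage and length in those genes, 302 bases. GENCODE 29, used for exon lengths, holds 58261 of the 62754 gene identifiers, 58201 at an overlapping position.

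limma 3.58.1 in R 4.3.3 (eBayes with trend, 2-sided, Benjamini-Hochberg over 14294 genes, threshold 0.05) was fitted to log2(TPM + 1), and all adjusted p-values are from it. It was checked on simulated data. The rest was computed in Python 3.11.15 (pandas 2.3.3, NumPy 2.4.6), with SciPy 1.17.1 for permutation tests and figures drawn in matplotlib 3.10.9.

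Members, lists and the naming rule were chosen with earlier results of these data known. The rule names MEN1, the 6 members, at most 4 genes a list by adjusted p plus known partners, named rows within 500 kb of a member and the 3 nearest profiles; late erythroid genes set beside CA1 and CA2, single list members outside the rule (such as TRIM58, ACACA and CPS1) and CA12 were chosen after their values were seen. Alternatives changed the pseudocount, filter, unit, scaling, weights, replicate block and overlapping rows, and left out each library. Some genes that the rule names are not reported here.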

Additional observations from a re-analysis of the deposited data

How the results depend on the processing

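Of 143 comparisons of the carbonic anhydrase values and the count of genes past the threshold with an alternative, 133 kept direction and side of the threshold or stayed within the spread. CA1 (log2 fold change 0.63 to 1.08) and CA2 (0.60 to 0.74) passed under each of their 19 alternatives. Both tallies hold alternatives that could not differ from the main result. No row overlaps CA1, CA2, CA3, CA8 or CA13 on the same strand, so adding such rows repeated their main values. Scaling each library by 1 factor cannot move the CA1 to CA2 ratio. CA8 passed with median-of-ratios scaling (0.29, adjusted p 0.0485), array weights (0.26, adjusted p 0.0417) and coverage (0.31, adjusted p 0.00639), and ran from 0.14 to 0.29 with 1 library left out; the cause was not tested. Adding overlapping rows on either strand gave 0.99 for CA3 and 0.0994 for CA5B (adjusted p 0.4), and on the same strand -0.0808 for CA5B (adjusted p 0.601), because the added rows are more abundant. Quantile normalization, which sets values by rank, gave -0.108 for the CA1 to CA2 log2 ratio. The setting log2(TPM + 0.1) gave 0.64 for CA13 against 0.17, since a smaller pseudocount widens differences near 0. Testing in limma for changes beyond a preset size (treat) gave 2126 genes in place of 7657, by its own construction. CA5B had no value at a mean TPM of 5 or more, and CA13 none with the block, weights, quantile scaling or that filter, because they fall below the genes fitted.

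A replicate block (the replicate number as a term) left 7012 genes past the threshold, and CA1, CA2, CA3 and CA5B kept their calls (adjusted p 0.00192, 0.00105, 0.0268 and 0.0254). Deviations of libraries with the same number correlated at 0.0171, -0.0265 and -0.0124, so the numbers are not shown to pair the libraries. About 9.2 to 49 read pairs for CA5B and 1.4 to 9.6 for CA13 limit the precision of those values. Coverage in place of TPM was chosen after the data were seen.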
